A study of Mus musculus with 6 samples.

Results

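Endothelial cells set the tone of the muscle around them with opposing signals. Nitric oxide, made by nitric oxide synthases, diffuses into smooth muscle cells and pericytes, where soluble guanylate cyclase senses it, makes cyclic GMP, and so turns on a kinase that relaxes the cell. Endothelin is cut from a precursor by an endothelin converting enzyme and binds receptors coupled to calcium and contraction. In the brain both signals shape local blood flow, and each has been discussed in relation to amyloid in the vessel wall, called cerebral amyloid angiopathy (CAA).

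The expression of 10 genes of these pathways, of 32287 genes measured, was followed through the cells of the mouse cerebral microvasculature. They were chosen by name and matched to the gene symbols in the deposited files. *Nos3* and *Nos1* encode the endothelial and the neuronal nitric oxide synthase, *Edn1* the endothelin-1 precursor, and *Ece1* the enzyme that processes it. *Ednra* and *Ednrb* encode the endothelin receptors, *Gucy1a1* and *Gucy1b1* the subunits of soluble guanylate cyclase, *Prkg1* the cGMP-dependent kinase, and *Agtr1a* a receptor for angiotensin II, another vasoconstrictor.

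One library was analysed for each of 3 WT mice and 3 ArcSwe mice. The WT mice were C57BL/6J, and the ArcSwe mice carried the AppArcSwe genotype, the *TgApp*ArcSwe model in which amyloid plaques are joined by CAA. All 6 were untreated males of 12 months, and 1 hemisphere of the cerebrum was used from each. Vessel fragments were captured with beads against CD31, an endothelial surface protein, and single cells were sequenced from the 3′ end of their transcripts. The promoter and cell type that drive the transgene are not given in the sources used here.

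Of 49059 cells, 44112 passed the filter on gene number and mitochondrial counts, with a median of 2922 to 5542 unique molecular identifiers (UMIs, counted transcripts) per cell in each library. A total of 283 barcodes occurred in more than 1 library. Clusters were named from marker genes, so that each name means cells like that type. The 10 genes and the others of their pathways were kept out of the genes that defined the clusters. Barrier endothelial cells, 24091 after removal of 5344 with a UMI of the microglial genes *Cx3cr1* or *Aif1* (1868 from WT and 3476 from ArcSwe mice), were divided into 6328 arterial, 13027 capillary, and 4736 venous cells. Of 4232 mural cells, 3597 were smooth muscle cells and 635 were pericytes, with only 32 to 315 pericytes per mouse, and 841 endothelial cells were of the fenestrated type that lacks a barrier. Of 1799 cells in a capillary cluster numbered 8, 1241 came from ArcSwe replicate 3. Clusters 0, 7, and 8 were named capillary by score, without a capillary marker among their leading genes. Cluster 0 was led by *Ttr*, *Pde7b*, *Hmcn1*, and *Hbb-bs*, at 0.72 of the library median of UMIs, and cluster 7 by *Ifit3*, *Ifit2*, and *Ifit1*. The paper set endothelial subclusters with unspecific markers aside before its tests, and the main fits here left out no cluster on this ground.

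The endothelial markers, 8 genes such as *Cldn5* and *Cdh5*, summed to 15213 to 20084 CPM (UMIs of a gene per 1000000 UMIs of all genes) in the barrier classes. The 6 mural markers summed to 7123 to 10880 CPM in both mural classes and to 21.7 to 117 CPM in the barrier endothelium. Pericytes still carried 4189 to 7819 CPM of the endothelial markers (4735 to 5903 in WT and 4189 to 7819 in ArcSwe mice), and smooth muscle cells 451 to 1890 CPM. Mural values of endothelial genes are therefore also given for the 275 pericytes and 2095 smooth muscle cells without a UMI of *Cldn5*, *Pecam1*, *Cx3cr1*, or *Aif1*. These pericytes were also shallower, with a mean depth per mouse of 2215 to 3824 UMIs a cell against 3724 to 5265 over all pericytes. They numbered only 16 to 104 per mouse, with 61190 to 230330 UMIs of all genes in sum, so that their levels rest on few counts. Levels are CPM of UMIs summed per mouse and class and are compared between classes, not between genes, because 3′ capture differs from gene to gene. Because the classes came from clusters of the same cells, class levels are a description, with the spread over the 6 mice and no test.

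*Nos3* (GRCm38 chromosome 5, 24364810 to 24384474, plus strand) was found throughout the endothelium and, by class, was highest in arterial cells. Arterial cells held 320, 328, and 325 CPM in WT replicates 1 to 3 and 323, 324, and 324 CPM in the ArcSwe mice. These values differed little among the 6 mice and all lay above the capillary ones, from 235 to 280 CPM. They also lay above the venous ones, from 263 to 318 CPM, by a small margin between 320 and 318 CPM. Venous and capillary ranges overlapped. Fenestrated endothelial cells had 109 to 128 CPM of *Nos3*, below every barrier class in every mouse. Smooth muscle cells had 3.99 to 30.2 CPM, and in the pericytes without endothelial or microglial UMIs 4 *Nos3* UMIs were left in all. The gene overlaps *Atg9b* on the opposite strand, and how strand was used in counting is not given in the sources used here.

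Within the arterial endothelium, *Nos3* was highest in cluster 12, led by genes such as *Fbln5*, *Mgp*, and *Eln*, at 409 to 476 CPM. Cluster 22, led by *Pi16* and *Ssu2*, came next with an overlapping range, at 345 to 456 CPM. Clusters 5, led by *Gkn3*, *Vegfc*, and *Bmx*, and 6, led by *Ccn3* and *Cdh13*, held 252 to 327 CPM. The arterial name of cluster 6 is weak, with no arterial marker among its leading genes. Its arterial score was 0.42, against 1.01, 1.61, and 1.16 in clusters 5, 12, and 22. At clustering resolution 2, a cluster of 1813 cells led by *Egr3* was named capillary, and the arterial class held 4752 cells. The medians of cluster 6 (298 CPM) and cluster 5 (277 CPM) lay below those of venous clusters 11 (313 CPM) and 13 (300 CPM). Only arterial clusters 12 and 22 thus had medians above those of every venous cluster. Across the 11 barrier clusters the medians ran from 233 CPM in capillary cluster 8 to 447 CPM in cluster 12.

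*Nos1* (chromosome 5, 117781032 to 117958840, plus strand), best known from neurons, was seen almost only in arterial endothelial cells. Its arterial level was 91.2, 73.9, and 131 CPM in WT replicates 1 to 3 and 103, 109, and 119 CPM in ArcSwe replicates 1 to 3. Capillary cells held 0.96 to 2.14 CPM and venous cells 0.56 to 2.90 CPM, so that arterial cells stood well apart in each mouse. Of the *Nos1* UMIs of a mouse, the removed barrier cells not counted, 79.9% to 95.7% (median 85.4%) lay in arterial endothelial cells, which held 17.6% to 21.1% of the UMIs of all genes. A *Nos1* UMI was found in 23.1% to 31.6% of arterial cells, in 0.33% to 0.90% of capillary cells, and in 0% to 1.03% of smooth muscle cells, at median depths of 3681 to 6274.5, 2441 to 4610, and 4601 to 7921 UMIs. With each cell thinned to 1000 UMIs, which left out 75 arterial, 518 capillary, and 45 smooth muscle cells, the shares were 6.42% to 10.0%, 0.097% to 0.21%, and 0% to 0.18%.

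Clusters 12 and 22 held 62.6% to 68.0% of the arterial *Nos1* UMIs in 5 of the mice and 38.8% in WT replicate 2. Cluster 12 held 296, 271, and 301 CPM in the WT mice and 273, 311, and 284 CPM in the ArcSwe mice, and cluster 22 held 207 to 275 CPM. These 2 clusters exceeded clusters 5 and 6, at 26.0 to 74.0 CPM, in every mouse. The share of cluster 12 among arterial cells ran from 7.30% in WT replicate 2, the mouse with the lowest arterial *Nos1*, to 19.5% in WT replicate 3, the mouse with the highest. The share of cluster 6 was 58.1% in the former and 23.7% in the latter. An unnamed cluster of 237 cells with both endothelial and mural markers carried 38.0 to 183 CPM of *Nos1*.

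**Figure D1:**
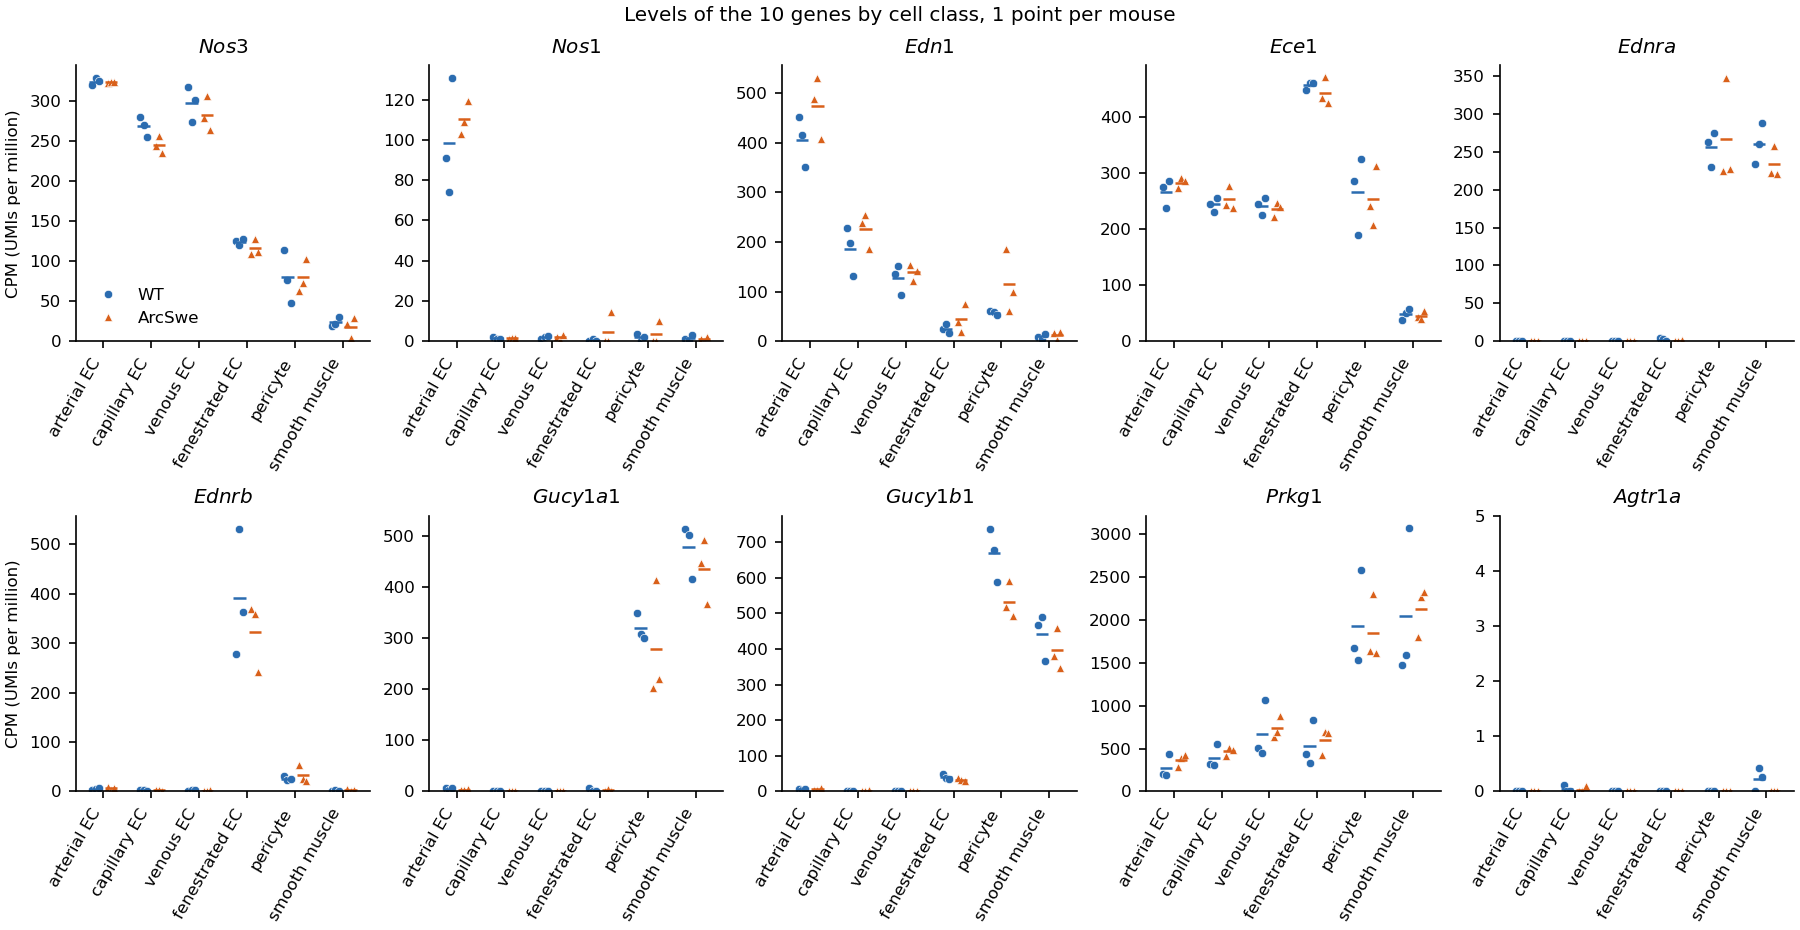
Level of each of the 10 genes (y axis, CPM of UMIs summed per mouse) in 6 cell classes (x axis). Each point is 1 mouse, blue circles are WT, orange triangles are ArcSwe, and bars are group means of 3 mice. *Nos1* is near 0 outside arterial endothelial cells, and *Ednra*, *Gucy1a1*, and *Gucy1b1* stand high in the mural classes.

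*Edn1* (chromosome 13, 42301476 to 42307990, plus strand) fell along the vessel from the arterial side. Arterial cells held 451, 415, and 350 CPM in the WT mice and 487, 529, and 406 CPM in the ArcSwe mice. Capillary cells held 228, 197, and 130 CPM in the WT mice and 238, 254, and 186 CPM in the ArcSwe mice. Venous cells held 135, 151, and 93.4 CPM in the WT mice and 153, 122, and 142 CPM in the ArcSwe mice. Every arterial value thus exceeded every capillary value, while capillary and venous ranges overlapped. WT replicate 3 was the lowest of the 6 in all 3 classes. Fenestrated cells had 17.2 to 75.9 CPM, and smooth muscle cells 2.00 to 18.9 CPM. Of the *Edn1* UMIs counted in the same way, a median of 49.4% per mouse lay in arterial and 30.2% in capillary endothelial cells.

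Cluster 12 again had a high arterial level of *Edn1*, at 427 to 617 CPM, and cluster 5 reached 347 to 603 CPM. The value of 1341 CPM in cluster 22 of ArcSwe replicate 2 rested on 74 UMIs of 6 cells, and the other 5 mice held 197 to 496 CPM there. Venous cluster 13, led by *Lrg1*, *Ackr1*, and *Lcn2*, held 62.8 to 140 CPM, overlapping the other venous clusters. *Edn1* levels thus differed more between clusters than those of *Nos3*, as the plot of barrier clusters shows.

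The 250 bases before the RefSeq start of *Edn1* (GRCm38.p6, chr13:42301226-42301475, plus strand) are printed because the gene is the ligand of the system and its level fell from the arterial to the other zones. Capitals mark a CCAAT box (CCAAT, searched on both strands), at 203 to 199 bases upstream.

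*Edn1*: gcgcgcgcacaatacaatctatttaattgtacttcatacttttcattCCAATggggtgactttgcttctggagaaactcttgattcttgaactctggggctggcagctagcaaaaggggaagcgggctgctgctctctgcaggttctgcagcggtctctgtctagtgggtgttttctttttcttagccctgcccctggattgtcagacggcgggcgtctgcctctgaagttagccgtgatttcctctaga

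The same letters occurred in 33.9% of the 32851 windows of this length before RefSeq starts. The TATA box (TATAAA, in 12.4% of windows), the AP-1 site (TGANTCA, in 6.75%), the GATA site (GATAA, in 22.6%), and the CArG box (in 1.47%) were also searched, and none of these letters were in this window.

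*Edn3*, which encodes another endothelin, had a similar order at 87.5 to 128 CPM in arterial, 43.1 to 64.7 CPM in capillary, and 33.4 to 58.6 CPM in venous cells, and *Edn2* at most 0.42 CPM in the 6 classes.

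**Figure D2:**
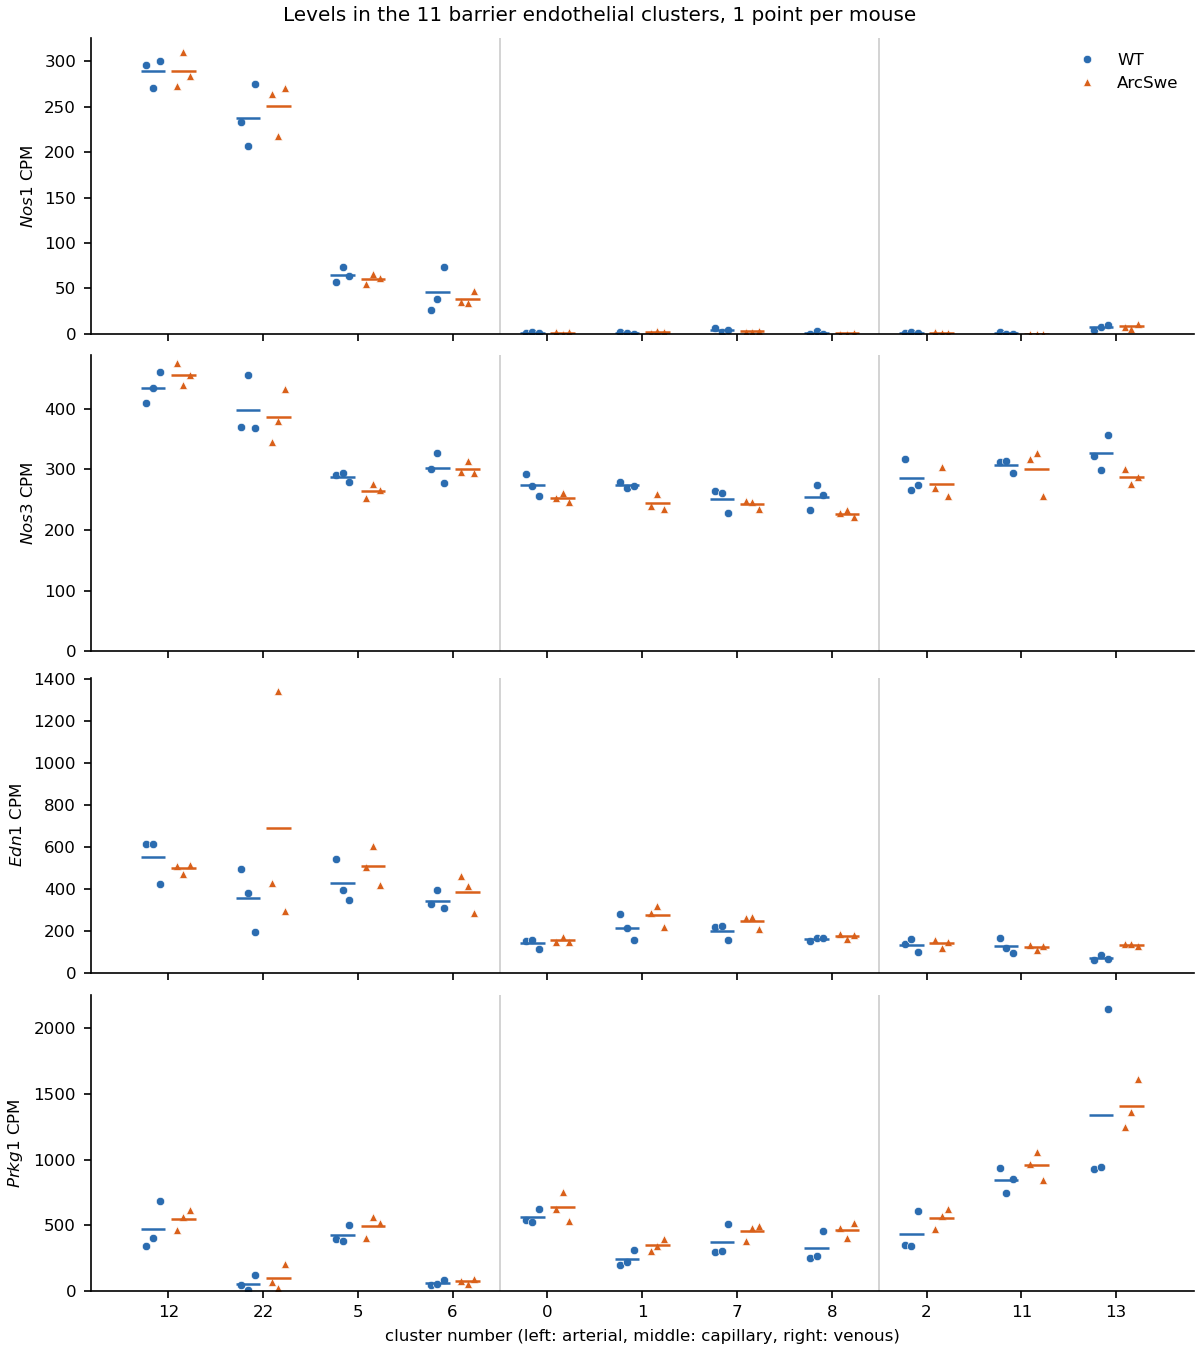
Levels of *Nos1*, *Nos3*, *Edn1*, and *Prkg1* (y axes, CPM) in the 11 barrier endothelial clusters (x axis, grouped as arterial, capillary, and venous). Each point is 1 mouse (blue circles WT, orange triangles ArcSwe) and bars are group means of 3 mice. *Nos1* is highest in clusters 12 and 22, and *Prkg1* is highest in venous cluster 13.

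*Ece1* (chromosome 4, 137862237 to 137965229, plus strand), the processing enzyme, was broad. Barrier endothelial cells held 222 to 291 CPM over their 3 classes, with overlapping ranges. Fenestrated cells held 449, 462, and 461 CPM in the WT mice and 435, 471, and 425 CPM in the ArcSwe mice, all above the barrier values. Pericytes held 190 to 325 CPM, and 179 to 304 CPM without the cells carrying endothelial or microglial UMIs, whereas smooth muscle cells held 38.6 to 57.0 CPM. The enzyme gene was therefore present in pericytes at a level like that of the endothelium and lower in smooth muscle cells of every mouse.

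The receptors took different cells. *Ednra* (chromosome 8, 77663031 to 77724464, minus strand), the receptor for which contraction is best known, was a mural gene. Smooth muscle cells held 233, 260, and 288 CPM in the WT mice and 223, 257, and 220 CPM in the ArcSwe mice. Pericytes held 262, 231, and 275 CPM in the WT mice and 225, 347, and 228 CPM in the ArcSwe mice. The mural ranges overlapped, and every barrier endothelial value was 0.79 CPM or less. Without the cells carrying endothelial or microglial UMIs, pericytes reached 376 to 425 CPM against 236 to 330 CPM in smooth muscle cells. The ranges no longer overlapped, with only 16 to 104 such pericytes per mouse. Because smooth muscle cells were more numerous, a median of 82.8% of *Ednra* UMIs lay in them and 9.11% in pericytes.

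*Ednrb* (chromosome 14, 103814625 to 103844402, minus strand), known to mediate endothelial release of nitric oxide and endothelin clearance, was nearly absent from the barrier endothelium at 0.91 to 8.57 CPM. Fenestrated endothelial cells held 278, 532, and 363 CPM in the WT mice and 368, 359, and 241 CPM in the ArcSwe mice. The few astrocytes captured, 63 in all, had 107 to 495 CPM, overlapping the fenestrated range. Pericytes held 20.3 to 53.0 CPM, or 34.1 to 109 CPM without the cells carrying endothelial or microglial UMIs, and smooth muscle cells 0.51 to 6.04 CPM. Arterial cluster 22 had 35.8 to 157 CPM, above the other 10 barrier clusters.

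Soluble guanylate cyclase was a feature of the mural classes, with low levels in the endothelium. *Gucy1a1* (chromosome 3, 82092427 to 82145789, minus strand) held 514, 502, and 415 CPM in smooth muscle cells of the WT mice and 446, 493, and 367 CPM in those of the ArcSwe mice. Pericytes held 350, 308, and 300 CPM in the WT mice and 202, 414, and 219 CPM in the ArcSwe mice. The mural ranges overlapped. A median of 86.1% of *Gucy1a1* UMIs lay in smooth muscle cells, and barrier endothelial cells held 0 to 6.26 CPM.

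*Gucy1b1* (chromosome 3, 82032006 to 82074689, minus strand) encodes the partner subunit and lies next to *Gucy1a1*. Pericytes held 738, 678, and 589 CPM in the WT mice and 517, 591, and 492 CPM in the ArcSwe mice. Smooth muscle cells held 469, 490, and 367 CPM in the WT mice and 381, 458, and 348 CPM in the ArcSwe mice. Each pericyte value exceeded each smooth muscle value, by a small margin between 492 and 490 CPM. The gap was wider without the cells carrying endothelial or microglial UMIs, at 776 to 966 against 394 to 526 CPM. Fenestrated cells held 30.1 to 50.1 CPM. *Gucy1a2*, which encodes the alternative alpha subunit, also had more in pericytes, at 389 to 597 CPM, than in smooth muscle cells, at 155 to 239 CPM. By median, *Gucy1a1* had the opposite order, at 469 CPM in smooth muscle cells and 304 CPM in pericytes, with overlapping ranges. This order is over all cells, pericytes with endothelial transcripts included.

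The 250 bases before the RefSeq start of *Gucy1b1* (GRCm38.p6, chr3:82074712-82074961, minus strand) are shown as the receptor counterpart of the *Edn1* window. Capitals mark a pair of CCAAT boxes read on the other strand (ATTGG), at 78 to 74 and 24 to 20 bases upstream, and none of the other 4 motifs were found.

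*Gucy1b1*: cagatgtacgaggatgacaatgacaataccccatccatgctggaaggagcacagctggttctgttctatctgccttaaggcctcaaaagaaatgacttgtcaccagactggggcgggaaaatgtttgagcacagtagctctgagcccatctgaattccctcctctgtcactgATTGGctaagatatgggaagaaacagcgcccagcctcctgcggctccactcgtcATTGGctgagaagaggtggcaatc

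*Prkg1* (chromosome 19, 30564489 to 31765033, minus strand), the kinase activated by cyclic GMP, was present in every vascular class. Smooth muscle cells held 1470, 1584, and 3068 CPM in the WT mice and 1794, 2262, and 2326 CPM in the ArcSwe mice. Pericytes held 1673, 1529, and 2574 CPM in the WT mice and 1639, 2295, and 1615 CPM in the ArcSwe mice. By CPM, WT replicate 3 was the highest mouse in both mural classes and in arterial, capillary, venous, and fenestrated endothelial cells. With the normalisation used in the tests, ArcSwe replicate 3 was the highest in arterial cells, at 482 CPM against 464 CPM in WT replicate 3. Endothelial levels were lowest in arterial cells, at 189 to 431 CPM, and reached 445 to 1070 CPM in venous cells. Normalised as in the tests, capillary values of 357 to 595 CPM overlapped arterial values of 220 to 482 CPM. Within the barrier endothelium, venous cluster 13 held 926 to 2147 CPM, and arterial clusters 6 and 22 held 6.13 to 202 CPM. The gene is very long, holds *Cstf2t* on its opposite strand, and whether reads in introns were counted is not given in the sources used here.

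*Agtr1a* (chromosome 13, 30336441 to 30382867, plus strand) was hardly seen. There were 0 UMIs in pericytes among 2607891 UMIs of all genes, which allows up to 1.15 CPM (3 counts of the total, counting error only), and 0 in arterial, venous, and fenestrated endothelial cells. Capillary endothelial cells and smooth muscle cells had 2 UMIs each. The exception was an unnamed cluster of 117 cells with both mural and fibroblast markers, led by *Dcn*, *Steap4*, and *Ccl19*, which held 32.0, 8.04, and 34.5 CPM in the WT mice and 9.13, 44.2, and 22.9 CPM in the ArcSwe mice, from 1 to 5 UMIs per mouse. *Agtr1b*, the other type 1 receptor gene of the mouse, had 2.92 to 19.5 CPM in smooth muscle cells.

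**Figure D3:**
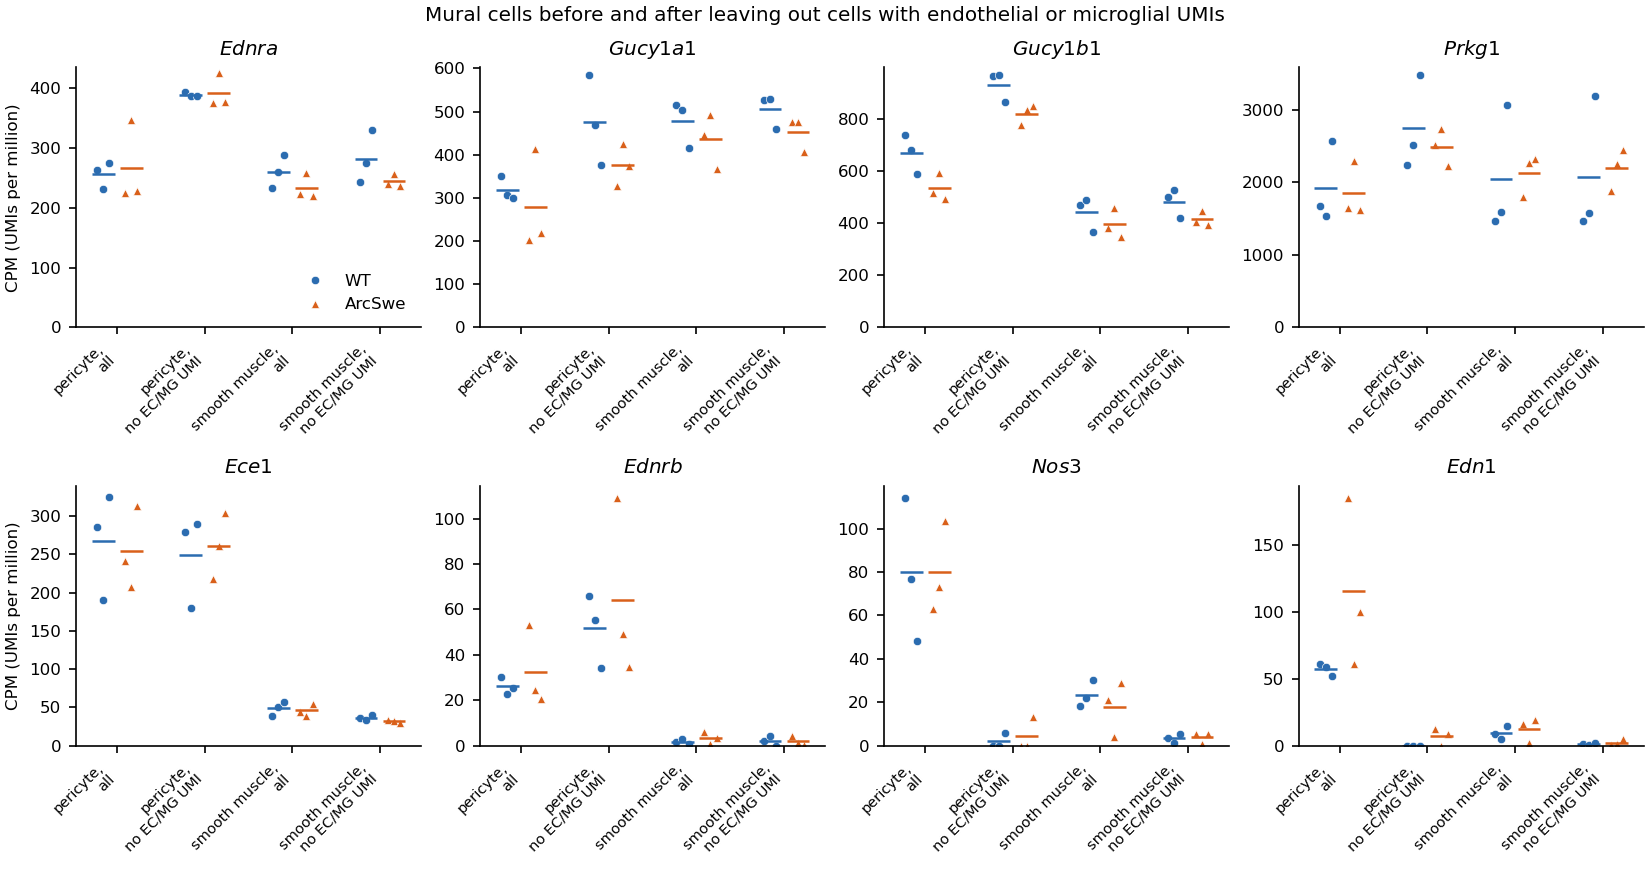
Levels of 8 of the genes (y axes, CPM) in pericytes and smooth muscle cells, over all cells and over cells with no UMI of *Cldn5*, *Pecam1*, *Cx3cr1*, or *Aif1* (no EC/MG UMI). Each point is 1 mouse (blue circles WT, orange triangles ArcSwe) and bars are group means of 3 mice. *Nos3* and *Edn1* drop to near 0 in pericytes without such UMIs, whereas *Ednra* and *Gucy1b1* rise.

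Other genes of these pathways, named after their levels were seen, had their own places. Downstream of cyclic GMP, *Pde3a* and *Pde5a*, which encode phosphodiesterases, *Mrvi1*, which encodes a partner of the kinase, and *Kcnma1*, which encodes a potassium channel, were highest in smooth muscle cells among the 6 vascular classes, at 1062 to 1524, 434 to 513, 374 to 432, and 255 to 446 CPM. *Kcnma1* held 0 to 18.1 CPM in pericytes. Of the genes that process angiotensin, *Ace* held 36.8 to 76.4 CPM in arterial and 6.77 to 10.5 CPM in capillary endothelial cells. *Enpep* was highest in pericytes, at 185 to 308 CPM. *Nostrin*, which encodes a protein that binds endothelial nitric oxide synthase, held 521 to 775 CPM in capillary and 480 to 710 CPM in venous cells, and *Calcrl*, a receptor gene of the adrenomedullin and CGRP family, 424 to 598 CPM in fenestrated cells.

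For 4 of the genes, those with the most similar pattern were sought by Pearson's r of log2(CPM + 1) over 50 points, each a class of a mouse, in 10 classes. Points of a mouse share a library, and the values are a description. Most similar to *Nos3* were *Kif26a* (r = 0.968), *Hspa12b* (r = 0.967), and *Tek* (r = 0.962), the last an endothelial receptor gene that served as a marker. Most similar to *Edn1* were *Slc6a6*, a taurine transporter gene (r = 0.923), *Gbp3* (r = 0.923), and *St8sia6* (r = 0.896). Most similar to *Ednra* were *Gfra2* (r = 0.984), *Cacna1c*, the L-type calcium channel gene (r = 0.982), and *Daam2* (r = 0.982). For *Agtr1a*, r was 0.484 at most, with *Tcap* (r = 0.484), *Dusp27* (r = 0.460), and *Gm13986* (r = 0.453), at a highest class mean of 0.11 CPM.

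The comparison of ArcSwe with WT mice asked whether these genes differ when plaques and CAA are present. None of them changed past the threshold in any class. In summed cells, fewer expressing cells and less RNA per cell cannot be told apart. Summed UMIs were tested across all genes with edgeR's quasi-likelihood test in barrier endothelial cells, their 3 zones, mural cells, pericytes, and smooth muscle cells. Of 11583 genes in arterial, 11996 in capillary, and 11084 in venous endothelial cells, 0 (0%) were called at an adjusted p under 0.05, as were 0 (0%) of 5491 in pericytes and 0 (0%) of 10948 in smooth muscle cells. All endothelial cells together gave 0 (0%) of 13470, and mural cells 0 (0%) of 11241. At an unadjusted p under 0.05 there were 595, 507, 567, 453, 278, 165, and 304 genes in endothelial, arterial, capillary, venous, mural, pericyte, and smooth muscle sums, or 4.42%, 4.38%, 4.73%, 4.09%, 2.47%, 3% and 2.78%. DESeq2 called 13 (0.0984%), 13 (0.112%), 11 (0.0917%), 3 (0.0271%), 0, 0, and 0 genes in the same order, and none of the 10 was among them. With the replicate number as a block, edgeR called 6 genes in arterial and 2 in venous cells, again none of the 10.

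Of the 10 genes, 9 had enough counts to be tested in at least 1 class, giving 51 pairs of a gene and a class, and *Agtr1a* was tested in none. The smallest adjusted p of any pair was 0.958 (edgeR). In arterial cells 7 of 8 tested genes had a positive log2 fold change and 1 a negative one (median 0.16, against -0.008 over all genes tested there). In pericytes 3 of 7 were higher (median -0.029), and in smooth muscle cells 2 of 7 (median -0.11). In capillary cells 5 of 7 were higher (median 0.086), and in venous cells 3 of 6 (median -0.0008). None of these counts rests on a called gene.

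The endothelial sources are taken first. *Nos3* differed by a log2 fold change of 0.02 (SE 0.10, 95% interval -0.20 to 0.25) in arterial, -0.10 (SE 0.10, -0.31 to 0.12) in capillary, and -0.04 (SE 0.11, -0.29 to 0.20) in venous cells. *Ece1* differed by 0.11 (SE 0.10, -0.12 to 0.34) in arterial cells, where the normalised ArcSwe values all lay above the WT values, as for 4.74% of all genes there. Groups did not overlap, in either direction, for 9.61% of genes in arterial, 10.7% in capillary, 9.34% in venous, and 10.2% in all endothelial sums, and for 7.8% in mural, 7.59% in pericyte, and 9.02% in smooth muscle sums, and for 2 of the 51 pairs. *Edn1* differed by 0.25 (SE 0.15, -0.09 to 0.59) in arterial, 0.32 (SE 0.21, -0.16 to 0.79) in capillary, and 0.16 (SE 0.19, -0.27 to 0.59) in venous cells, with overlapping groups in each. The sign was thus positive in all 3 zones for *Edn1* in the main fits, without a called difference in any. These zones come from the same mice. It was -0.11 in arterial cluster 12 alone, and in venous cells it fell to -0.036 at the lowest with a mouse left out. The capillary value stayed positive, at 0.098 or more in every setting.

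*Nos1* differed by 0.20 (SE 0.17, -0.18 to 0.58) in arterial cells, with overlapping groups. It was 0.03 in cluster 12 alone, and between 0.05 and 0.42 when each mouse was left out in turn, the highest without WT replicate 3. *Prkg1* differed by 0.44 (SE 0.28, -0.19 to 1.07) in arterial cells, with 0.88 without WT replicate 3, 0.26 without WT replicate 2, 0.27 without WT replicate 1, and 0.25 in cluster 12 alone. It differed by 0.11 (SE 0.25, -0.47 to 0.68) in smooth muscle cells, where it was 0.47 without WT replicate 3 (edgeR, adjusted p = 0.581) and below 0 without either other WT mouse.

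The receptor side gave small values too. *Ednra* differed by -0.13 (SE 0.12, -0.40 to 0.15) in smooth muscle cells and 0.02 (SE 0.22, -0.44 to 0.49) in pericytes. *Gucy1a1* differed by -0.11 (SE 0.16, -0.48 to 0.27) in smooth muscle cells and -0.24 (SE 0.25, -0.78 to 0.29) in pericytes. *Gucy1b1* differed by -0.13 (SE 0.17, -0.53 to 0.26) in smooth muscle cells and -0.31 (SE 0.20, -0.74 to 0.11) in pericytes. Both cyclase genes were thus lower on average in ArcSwe mural cells, within the spread between mice. Fenestrated cells, where *Ednrb* was highest, were not tested.

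**Figure D4:**
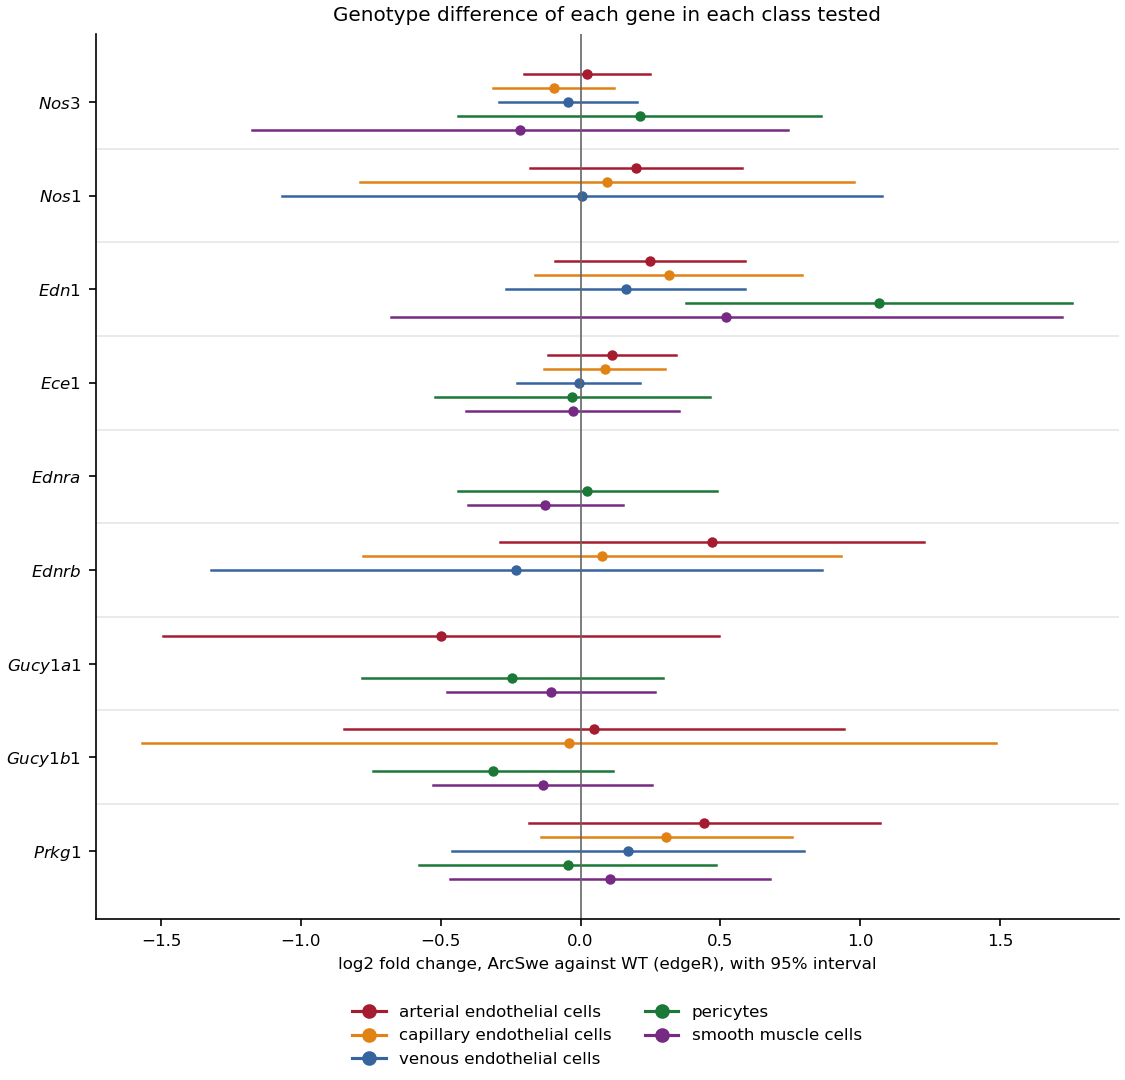
Log2 fold change of ArcSwe against WT mice (x axis, edgeR) with its 95% interval for each tested gene (y axis) in 5 classes, marked by colour, with 3 mice per genotype. All intervals but that of *Edn1* in pericytes (1.07, from 0.38 to 1.76) include 0, and no gene was called.

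A single pair had an unadjusted p under 0.05. *Edn1* in pericytes had 16, 13, and 25 UMIs in the WT mice and 56, 10, and 118 in the ArcSwe mice, or 73.8, 73.6, and 64.0 normalised CPM against 232, 75.7, and 124. The highest was ArcSwe replicate 1, and ArcSwe replicate 2 stood barely above the WT mice. The log2 fold change was 1.07 (SE 0.33, 95% interval 0.38 to 1.76), with an adjusted p of 0.999 in edgeR. It was 0.66 without ArcSwe replicate 1. ArcSwe values above all WT values were found for 3.3% of genes in pericytes. The endothelial markers of these pericytes are given above with overlapping ranges, and in the pericytes without endothelial or microglial UMIs 3 *Edn1* UMIs were left, 0 of them in WT mice, too few to test.

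By cluster, levels of *Nos3*, *Nos1*, *Edn1*, *Ece1*, and *Prkg1* were laid out in 11 barrier clusters as a description. *Edn1* in venous cluster 13 was 62.8, 88.5, and 70.3 CPM in the WT mice and 140, 138, and 132 CPM in the ArcSwe mice. The ArcSwe mice all lay above the WT mice there, from 22 to 232 cells per mouse, as did 3.91% of the genes with at least 10 UMIs in that cluster, and the groups overlapped in the other 10 clusters. *Ece1* also lay higher in all ArcSwe mice in cluster 13 and in cluster 22, where 4.25% of genes did. *Nos3* lay lower in all ArcSwe mice in clusters 1 and 5, as did 7.83% and 6.32% of genes. *Nos1* and *Prkg1* groups overlapped in every cluster. No test was made within these clusters.

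Whether a genotype effect differed between classes was tested with the mouse as a block. Between smooth muscle cells and pericytes, 0 of 10536 genes (0%) were called by edgeR, and 367 had an unadjusted p under 0.05. Between arterial and capillary cells, 4 of 12311 (0.0325%) were called, and between venous and capillary cells 14 of 12074 (0.116%). None of the 10 genes was among them. The smallest p of a member was that of *Nos3* between arterial and capillary cells, with a difference of log2 fold changes of 0.13 (SE 0.07, edgeR, adjusted p = 0.877).

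The wider pathways were described by 7 lists of 128 genes, of which 110 could be tested in at least 1 class. None was called by edgeR or DESeq2, with smallest adjusted p-values of 0.675 and 0.222. Over all genes tested the medians lay between -0.008 and 0.003 in the 5 classes given here. Of the list of nitric oxide synthesis and its regulation, 10 of 23 tested genes had a positive log2 fold change in arterial (median -0.09), 7 of 22 in capillary (median -0.03), 10 of 22 in venous (median -0.03), 9 of 16 in pericyte (median 0.07), and 13 of 22 in smooth muscle sums (median 0.008). Of the endothelin list, it was 4 of 5 in arterial (median 0.22), 3 of 4 in capillary (median 0.08), 1 of 4 in venous (median -0.12), 2 of 4 in pericyte (median -0.002), and 2 of 4 in smooth muscle sums (median 0.11). The sign of the median thus differed between classes in both lists.

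Of the nitric oxide receptor and cGMP effector list, 5 of 11 were positive in arterial (median -0.06), 6 of 11 in capillary (median 0.15), 4 of 6 in venous (median 0.02), 6 of 13 in pericyte (median -0.05), and 7 of 16 in smooth muscle sums (median -0.02). Contraction coupling genes gave 8 of 19 in arterial, 8 of 19 in capillary, 11 of 17 in venous, 12 of 20 in pericyte, and 10 of 22 in smooth muscle sums, with medians from -0.01 to 0.02. Both lists had members of either sign in every class.

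Renin-angiotensin genes gave 3 of 4 in arterial (median 0.04), 2 of 4 in capillary (median 0.002), 3 of 4 in venous (median 0.05), 3 of 5 in pericyte (median 0.02), and 5 of 7 in smooth muscle sums (median 0.11). The natriuretic peptide list gave 2 of 3 in arterial (median 0.41), 1 of 2 in capillary (median 0.10), 0 of 2 in venous (median -0.23), and 0 of 1 in smooth muscle sums (median -0.23). Other vasoactive ligands and receptors gave 8 of 17 in arterial (median -0.01), 11 of 16 in capillary (median 0.13), 6 of 14 in venous (median -0.01), 6 of 8 in pericyte (median 0.19), and 9 of 19 in smooth muscle sums (median -0.02). None of these counts holds a called gene.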

How the data were processed

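Single cells from cerebral microvessels of 3 WT and 3 ArcSwe mice were sequenced, each mouse giving a library. The deposited matrices hold counts of UMIs that were not normalized, which the authors obtained with Cell Ranger 7.0.0 from an mm10 reference extended by *Clec7a* and human *NOTCH3*. This version counts intronic reads by default, and whether that was changed is not given in the sources used here. Cells with 500 to 4500 genes and under 10% mitochondrial counts were kept. They were clustered on 2000 variable genes and 30 principal components (20 neighbours, leidenalg 0.10.2, resolution 1, seed 1, Python 3.11.15), without the 10 genes and the 128 list genes. Clusters with markers of several types, 1229 cells, stayed unnamed, which stood in for a doublet caller. The zone of an endothelial cluster was its highest marker score by a margin of 0.1, a rule set after the data were seen.

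UMIs were summed per mouse and class. Genes were taken out by symbol if it began like that of a ribosomal protein, some kinase genes included, or was a mitochondrial name. Symbols ending in Rik, or in -ps with or without a number, were also taken out, and pseudogenes with other names were kept. The rest were tested with edgeR 4.0.16 in R 4.3.3 (filterByExpr, TMM, genotype as the only term, Benjamini-Hochberg adjusted p under 0.05). DESeq2 1.42.0 was an alternative. The tests were tried on simulated data. Summed UMIs per mouse ran from 2876847 to 7009381 in arterial cells, 3988647 to 10219630 in capillary cells, 3296269 to 6882899 in venous cells, 164245 to 1180900 in pericytes, and 1503541 to 5553165 in smooth muscle cells. Gene positions are from GENCODE and promoters from RefSeq, which held 8 of the 10 genes. The 10 genes and the lists were chosen with earlier results of these data known. All 10 are named in every class, with list genes past the threshold and, for *Nos3*, *Edn1*, *Ednra*, and *Agtr1a*, the 3 genes with the highest r among those with at least 10 CPM in a class. Counts of the fenestrated class, of immune cells, and of astrocytes were not tested. Deviations of same-numbered mice from their group means correlated at over 0.1 for all 3 numbers in arterial (0.119, 0.101, and 0.324) and venous sums (0.121, 0.103, and 0.295). In the other sums at least 1 number fell short, the lowest being -0.188 in pericytes and the highest 0.434 in smooth muscle cells. The numbers come from the labels, which name no shared litter or batch. Mice with different numbers were not correlated, so these values cannot show whether same-numbered mice were paired. A fit with the number as a block was an alternative.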

Additional observations from a re-analysis of the deposited data

Results flagged for a closer look

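Genotype effects that differed between classes were called by edgeR for 4 genes between arterial and capillary endothelial cells and for 14 genes between venous and capillary endothelial cells. Among the first was *Apln*, a gene of the vasoactive lists that encodes the peptide apelin, with a difference of log2 fold changes of -4.30 (SE 0.69, adjusted p = 0.0124). Its UMIs in arterial cells were 60, 14, and 3 in the WT mice and 2, 0, and 12 in the ArcSwe mice, and in capillary cells 9, 8, and 5 against 33, 9, and 51. Arterial groups overlapped, and WT replicate 1 held most of the arterial counts. The other 3 were *Ccn3* (-2.76), *Depp1* (-0.68), and *Ankrd37* (-0.87), and *Ccn3* leads a cluster that was used to define the arterial class.

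All 14 genes of the venous comparison had a more negative effect in venous cells, among them *Vcam1* (-1.47), *Icam1* (-0.61), *Cxcl1* (-0.62), *Cxcl2* (-1.41), and *Csf1* (-0.84), and *Vcam1* is one of the venous markers. Without cluster 8, each of these 18 genes kept an adjusted p under 0.05, the largest being 0.0469 for *Casp4*. Their link to the composition of the classes was not tested.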

How the results depend on the processing

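None of the 10 genes was called in any class under any setting tried. Of 727 alternative log2 fold changes of a gene in a class, 649 kept their direction and 78 did not, 22 of the latter without leaving out a mouse. The class with the highest level was the same for 8 of 9 genes at clustering resolution 2 and with a stricter cell filter, the exception being *Ednra*, which moved between pericytes and smooth muscle cells. The numbers of genes called over all genes, 0 in every class with edgeR in the main setting, depended more on the settings. DESeq2 called 13 in endothelial, 13 in arterial, 11 in capillary, and 3 in venous cells. Without the filter on low counts, edgeR called 25 in arterial, 9 in capillary, 25 in venous, 2 in mural, 16 in pericyte, and 3 in smooth muscle sums. Clustering resolution 2 and cluster 12 alone gave 1 in arterial cells. Leaving out a mouse gave 0 to 1 in pericytes, the 1 without ArcSwe replicate 2, and without cluster 8 the arterial and capillary genotype effects differed for 9 genes.

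Replicate numbers recur in both genotypes. With them as a replicate block, edgeR called 6 genes in arterial, 2 in capillary, and 2 in venous cells, and *Gucy1b1* in arterial cells was -0.073 and *Nos1* in venous cells -0.0053. The block changed no call of the 10 genes.

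The remaining changes of direction were small in most genes, and the cause was not tested. At clustering resolution 2, log2 fold changes were -0.050 for *Gucy1b1* in arterial, -0.16 for *Nos1* in capillary, 0.026 for *Ece1* in venous cells, and 0.011 for *Prkg1* in pericytes. With cells carrying microglial UMIs kept, they were -0.014 for *Nos3* and -0.27 for *Gucy1b1* in arterial cells, and -0.36 for *Nos1* and 0.0017 for *Ece1* in venous cells. In cluster 12 alone, they were -0.11 for *Edn1* and -0.19 for *Gucy1b1*. DESeq2 gave -0.043 for *Nos1* in venous cells, where *Ece1* was 0.0025 without the filter on low counts and 0.00032 with the removed gene classes kept. The stricter cell filter gave 0.18 for *Nos3* in mural, 0.00040 for *Nos3* in smooth muscle, and 0.028 for *Prkg1* in pericyte sums. With cells carrying endothelial or microglial UMIs left out, values were 0.47 for *Nos3* and -0.048 for *Ece1* in mural sums, and -0.00081 for *Ednra* and 0.056 for *Ece1* in pericytes.

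Leaving out each mouse in turn turned the direction of 26 log2 fold changes. In endothelial cells the ranges were -0.10 to 0.24 for *Nos1*, -0.049 to 0.29 for *Ednrb*, and -0.80 to 0.21 for *Gucy1b1*. In arterial cells they were -0.0056 to 0.058 for *Nos3* and -0.58 to 0.26 for *Gucy1b1*. In capillary cells they were -0.11 to 0.43 for *Nos1*, -0.18 to 0.33 for *Ednrb*, and -1.06 to 0.30 for *Gucy1b1*. In venous cells they were -0.099 to 0.014 for *Nos3*, -0.29 to 0.31 for *Nos1*, -0.036 to 0.34 for *Edn1*, -0.61 to 0.023 for *Ednrb*, -0.033 to 0.024 for *Ece1*, and -0.032 to 0.63 for *Prkg1*. In mural sums they were -0.53 to 0.24 for *Nos3*, -0.20 to 0.28 for *Ece1*, -0.27 to 0.013 for *Gucy1a1*, and -0.090 to 0.43 for *Prkg1*. In pericytes they were -0.16 to 0.56 for *Nos3*, -0.16 to 0.15 for *Ednra*, -0.24 to 0.16 for *Ece1*, and -0.22 to 0.22 for *Prkg1*. In smooth muscle cells they were -0.66 to 0.12 for *Nos3*, -0.17 to 0.080 for *Ece1*, -0.23 to 0.012 for *Gucy1a1*, and -0.066 to 0.47 for *Prkg1*.

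*Edn1* in pericytes was 0.66 to 1.26 when each mouse was left out, and without the filter on low counts its adjusted p was 0.0945 (edgeR). With 3 mice per genotype and 32 to 315 pericytes per mouse, differences within the intervals given could not be resolved.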
